A study of Mus musculus with 82 samples.

Results

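The chemokine genes and chemokine receptor genes were followed through 105 days of granuloma growth in a mouse model of plasma cell tumor. Members were all genes on the array whose symbol is Ccl, Cxcl, Ccr or Cxcr with a number, together with Cx3cl1, Cx3cr1, Xcl1 and the atypical receptor genes (Ackr). Cxcl12 and Cxcr4 were left out by this rule. It gave 49 of the 12394 genes on the array: 18 CC ligands, 11 CXC ligands, 2 other ligands, 14 signalling receptors and 4 atypical receptors. Each gene was represented by the probe set with its highest mean over all 82 arrays.

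The mice were BALB/c.iMycEμ mice, in which a Myc gene is inserted into the immunoglobulin heavy chain locus so that it is driven in the B lineage. All were at least 8 weeks old and all received 0.5 ml of pristane, an oil that causes peritoneal granulomas in which plasma cell tumors arise. No group without pristane or without the transgene was analysed here, so every comparison is between tissue types or between days. Granuloma sections were stained with methyl green pyronin, a dye pair that marks plasma cells, and the stained cells were cut out with a laser (captured cells). RNA was also taken from whole sections. Study 1 had captured cells on day 7 (4 specimens), day 17 (4), day 33 (3), day 46 (3) and day 104 (1), and whole granuloma on day 7 (2), day 17 (2), day 33 (3) and day 104 (1). Study 2 had 3 specimens of each tissue type on each of days 7, 17, 33, 49 and 105, and all 15 of its specimens were measured in both. Arrays of 1 specimen code were averaged, which gave 53 values per gene, and n is the number of such specimens. Whether each code is a separate animal is not stated, so p-values measure the spread between specimens as the titles number them.

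Chemokines are small secreted proteins that draw cells along a gradient through G protein-coupled receptors. CXC ligands with an ELR motif (Cxcl1, Cxcl2, Cxcl5) attract neutrophils through Cxcr2, many CC ligands attract monocytes, macrophages and eosinophils through Ccr1, Ccr2 and Ccr3, and Cxcl9 and Cxcl10, which interferon gamma induces, attract T and NK cells through Cxcr3. Atypical receptors bind chemokines without G protein signalling and clear or carry them. Antibody-secreting cells use receptors of this family to reach the bone marrow and mucosal tissue.

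The deposited values are log2 levels. Array medians ranged from 4.973 to 5.111 (study 1, captured), from 5.727 to 5.825 (study 1, whole), from 5.309 to 5.641 (study 2, captured) and from 7.113 to 7.335 (study 2, whole). Tissue types were therefore compared on values quantile-normalized over all arrays, and days on the deposited values. As a measure of RNA integrity, the 3′ minus 5′ difference of the actin and Gapdh control probe sets averaged 4.14 ± 0.90 over the 30 captured and 1.61 ± 0.13 over the 15 whole arrays of study 2 (SD), and 4.49 ± 0.68 over 25 against 3.19 ± 0.36 over 12 in study 1. Of the 9 plasma cell markers on the array, 8 were above the array median in every captured specimen of study 1 (Tnfrsf17 in 5 of 15), and in study 2 the same 8 were above it in 15 of 15 and Tnfrsf17 in 14. Those 8 were also above it in every whole section (8 in study 1, 15 in study 2), so they do not tell the tissue types apart by this measure, and Tnfrsf17 was above it in 0 of 8 and 2 of 15 whole sections. They were not free of other cells, since 8 or 9 of the 9 macrophage markers were above the array median in each captured specimen of both studies. The 6 pancreatic acinar markers were all above the array median in captured specimen 1 of day 7 of study 2, with a summed level of 12.83 against 6.69 to 7.62 in the other 14. In study 2, specimen 2 of day 49 stood apart in captured cells, with a summed plasma cell level of 11.69 against 13.74 to 14.74 in the other 14, and without its array of highest median 16 members in place of 17 passed the tissue comparison given below (Ccl11 and Cxcl5 were lost and 1 other was gained). In bulk samples such as these, fewer cells of a type and less RNA per cell cannot be told apart.

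A gene was tested when it was above the array median in at least 3 specimen averages, which 31 of the 49 members were. The 18 others were Ccl1, Ccl17, Ccl20, Ccl25, Ccl27a, Ccl28, Cxcl11, Cxcl15, Cx3cl1, Xcl1, Ccr3, Ccr4, Ccr7, Ccr8, Cxcr5, Cxcr6, Ackr2 and Ackr4, and 13 of these were never above it. They include the ligands of several receptors described below: Ccl25, the ligand of Ccr9, lay between 3.71 and 6.57, Ccl20, the ligand of Ccr6, between 3.97 and 5.86, Cx3cl1, the ligand of Cx3cr1, between 3.83 and 6.95, and Ccl28, a ligand of Ccr10, between 3.27 and 5.84. They also include the eosinophil receptor Ccr3 (2.87 to 4.58), Ccr4, the receptor of Ccl22 (3.27 to 5.67), Ccr8, the receptor of Ccl8 in mice (3.21 to 4.99), and Cxcr5, the receptor of Cxcl13 (3.55 to 7.84). Of the tested members, Ccl22 passed through 3 specimen averages, Ccl11 and Ccr10 through 5 (4 on the deposited scale) and Ccl7 through 6, so these lay below the array median in most specimens.

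The first comparison asked which chemokine genes differ between captured plasma cells and the granuloma around them. In study 2, 17 of the 31 tested members passed an adjusted p of 0.05 (54.8%), 5 higher and 12 lower in captured cells, against 69.8% of all 8632 genes tested (34.5% higher, 35.3% lower). In study 1, 18 of 31 passed (58.1%), 3 higher and 15 lower, against 60.5% of all genes (31.5% higher, 29% lower). The shares called were thus below that of all genes in study 2 and near it in study 1. The median member differed by -0.14 in study 2 (all genes -0.02) and by -0.65 in study 1 (all genes 0.06). Members called lower in both studies were Cxcl1, Cxcl2, Cxcl5, Cxcl16, Ccr1, Cx3cr1, Cxcr3 and Ackr3, which is 8 members where 18% of all genes did so. Ccr9 and Cxcl17 were called higher in both, 2 members where 18.5% of all genes were. These 2 passed the filter only through captured cells, the group where they are high. Of the whole sections, Ccr9 was above the array median in 0 of 8 (study 1) and 1 of 15 (study 2). Cxcl17 was above it in 0 of 8 and 2 of 15.

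**Figure D1:**
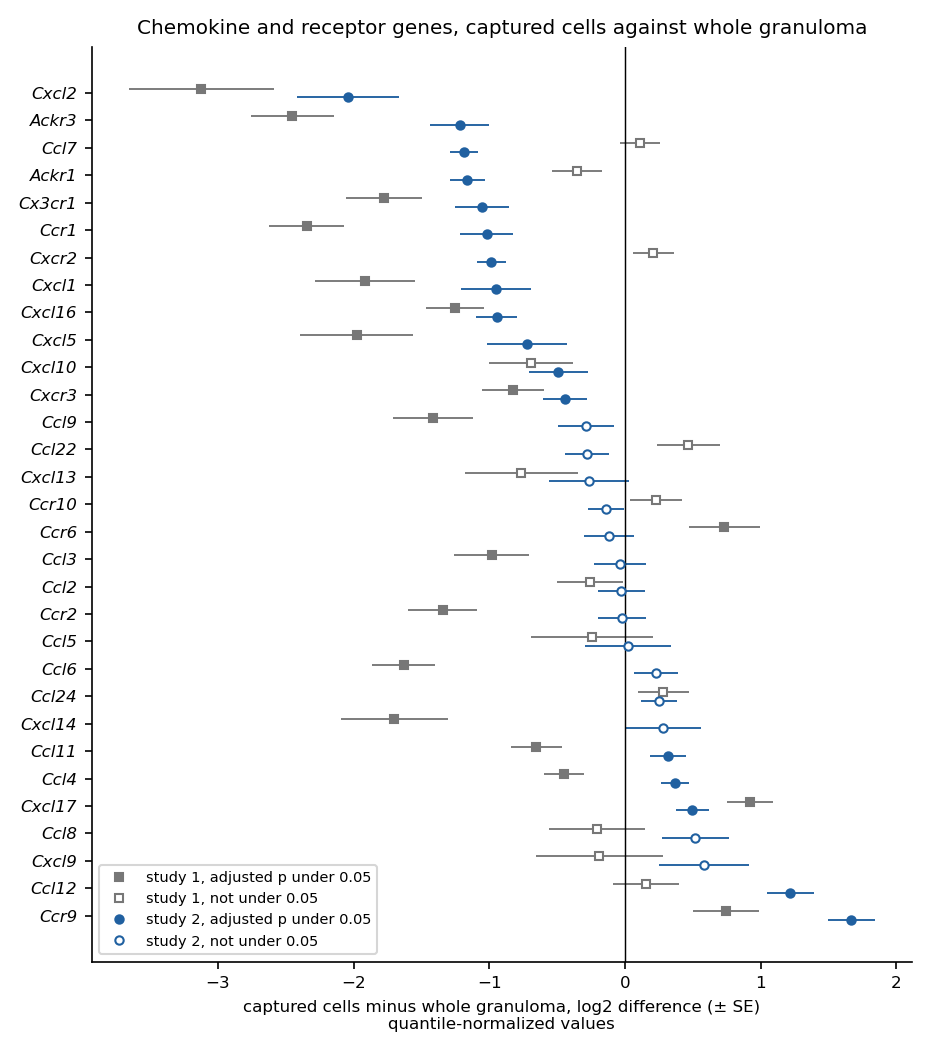
Log2 difference of captured cells minus whole granuloma for the 31 tested chemokine and receptor genes, with its standard error, in study 1 (squares) and study 2 (circles), sorted by study 2. Filled symbols passed an adjusted p of 0.05. Cxcl2 has the lowest value in both studies (-3.12 and -2.04) and Ccr9 the highest in study 2 (1.67).

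Of the 31 members, the neutrophil attractant Cxcl2 had the largest difference in both studies. Promoters of 4 ligands are printed here: Cxcl1 and Cxcl2, neighbours in a CXC gene cluster, were called lower in captured cells of both studies, Cxcl1 and Ccl9 fell on the last day of study 2, and Cxcl10 was high in single specimens. Each line gives the 230 bases before the transcription start (RefSeq, GRCm38.p6), 5′ to 3′ on the gene's strand, with matches on either strand to the NF-kB consensus and to the interferon-response letters (GAAA, any 2 bases, GAAA) in capitals. Cxcl1 lies at chr5:90891015-90891244 (plus strand), Cxcl2 at chr5:90903669-90903898 (plus), Ccl9 at chr11:83578637-83578866 (minus) and Cxcl10 at chr5:92348890-92349119 (minus).
Cxcl1: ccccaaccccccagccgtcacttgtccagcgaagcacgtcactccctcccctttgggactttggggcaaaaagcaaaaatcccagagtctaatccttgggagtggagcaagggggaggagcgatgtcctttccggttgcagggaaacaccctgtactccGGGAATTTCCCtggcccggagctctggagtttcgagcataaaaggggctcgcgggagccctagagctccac
Cxcl2: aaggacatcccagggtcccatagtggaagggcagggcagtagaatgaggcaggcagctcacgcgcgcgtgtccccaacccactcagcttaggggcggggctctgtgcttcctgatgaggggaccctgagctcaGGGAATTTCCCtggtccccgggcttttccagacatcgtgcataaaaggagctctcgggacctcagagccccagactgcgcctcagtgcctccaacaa
Ccl9: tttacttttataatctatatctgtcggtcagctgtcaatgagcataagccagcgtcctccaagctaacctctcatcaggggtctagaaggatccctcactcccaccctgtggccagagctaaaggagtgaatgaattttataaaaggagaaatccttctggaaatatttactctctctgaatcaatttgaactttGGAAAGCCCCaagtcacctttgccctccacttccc
Cxcl10: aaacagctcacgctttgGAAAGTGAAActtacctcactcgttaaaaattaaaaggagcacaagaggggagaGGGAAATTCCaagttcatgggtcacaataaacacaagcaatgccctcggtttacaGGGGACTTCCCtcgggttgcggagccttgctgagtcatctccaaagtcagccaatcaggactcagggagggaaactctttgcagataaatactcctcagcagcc
The NF-kB match began 71 bases before the start in Cxcl1, 97 in Cxcl2 and 35 in Ccl9, and 159 and 104 bases before it in Cxcl10, whose interferon-response match began 213 bases before it. In Cxcl1, Cxcl2 and the second site of Cxcl10, matches to both strands overlapped, 1 base apart. Over windows of 300 bases around the start (250 before, 50 after), which 36 of the 49 members have, the NF-kB consensus occurred in 11 members and in 8.46% of all 32851 windows. The interferon-response letters occurred in 2 members (Cxcl10 and Cxcl14) and in 3.44% of all windows. These matches are letters, not measured binding.

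Cxcl2 was at 5.44, 8.83 and 9.65 (lowest, median and highest of 15 specimens, quantile-normalized log2) in whole granuloma of study 2 and at 4.43, 6.09 and 8.56 in captured cells. The ranges overlapped, but 13 of the 15 specimens measured in both tissue types were lower in captured cells (log2 difference -2.04 ± 0.38, SE, 4.12-fold, limma adjusted p 8.99e-06). In study 1 it was at 7.67, 8.78 and 9.70 (n = 8) in whole granuloma and at 3.53, 6.63 and 8.45 (n = 15, day 46 included) in captured cells. All 5 specimens measured in both were lower in captured cells. The log2 difference, without day 46, was -3.12 ± 0.54 (8.71-fold, limma adjusted p 4.67e-06). By day it was -3.09, -1.73 and -2.59 on days 7, 17 and 33 and -5.11 on day 104, which has 1 specimen.

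Cxcl1 had a log2 difference of -0.95 ± 0.26 in study 2 (adjusted p 0.00137) and was lower in captured cells of 15 of 15 specimens. It was at 4.77, 8.08 and 9.04 in whole granuloma and at 4.53, 6.87 and 8.01 in captured cells. Its difference in study 1 was -1.92 ± 0.37 (adjusted p 2.71e-05), and -1.06 (adjusted p 0.0101) without day 104, which has 1 specimen. Cxcl5 differed by -0.72 ± 0.29 in study 2 (adjusted p 0.0284, 10 of 15 specimens lower) and by -1.98 ± 0.42 in study 1 (adjusted p 0.000104, 5 of 5 lower). The study 2 call of Cxcl5 was lost without any 1 of specimen 1 of day 7, specimen 2 of days 17, 33 and 49 and specimen 1 of day 105, with differences between -0.55 and -0.65. Their receptor Cxcr2 differed between the studies. In study 2 it was at 5.42, 5.84 and 6.63 in whole granuloma and at 4.25, 4.90 and 5.59 in captured cells (-0.99 ± 0.11, adjusted p 1.28e-10), and in study 1 the difference was 0.21 and did not pass (adjusted p 0.227).

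Of the receptors of monocytes and macrophages, Ccr1 and Cx3cr1 were lower in captured cells of both studies and Ccr2 in study 1. Ccr1, which binds Ccl3, Ccl6, Ccl7 and Ccl9, was at 6.68, 7.99 and 8.53 in whole granuloma of study 2 and at 5.44, 6.86 and 8.16 in captured cells (-1.02 ± 0.20, adjusted p 1.61e-05, 14 of 15 specimens lower). In study 1 the ranges did not overlap: 7.96, 8.56 and 8.95 against 5.06, 6.16 and 7.80 (-2.35 ± 0.28, adjusted p 3.97e-09). Cx3cr1, a receptor of patrolling monocytes and tissue macrophages, was at 7.08, 7.83 and 8.89 in whole granuloma of study 1 and at 5.50, 6.23 and 6.93 in captured cells, again without overlap (-1.78 ± 0.28, adjusted p 1.14e-06). In study 2 its difference was -1.05 ± 0.20 (adjusted p 1.17e-05). The other Ccr1 probe set averaged 3.58 in captured cells and 4.86 in whole granuloma of study 2 (deposited log2). In study 1 it averaged 3.43 and 4.60. The other Cx3cr1 set averaged 3.35 and 5.24 in study 2 and 3.35 and 3.76 in study 1. These means lie below the array medians, and with the mean of all probe sets both calls stood. With the 3′ minus 5′ difference as a covariate, the study 2 call of Ccr1 was lost (-0.62, adjusted p 0.386). Ccr2, the receptor of Ccl2 and Ccl12 on inflammatory monocytes, passed in study 1 (-1.34 ± 0.25, adjusted p 2.19e-05). In study 2 it differed by -0.02 ± 0.18, and the difference between the studies passed (1.32 ± 0.32, adjusted p 0.000965).

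The ligands of these receptors followed less evenly. Ccl6 and Ccl9, both ligands of Ccr1, were lower in captured cells of study 1 (-1.63 ± 0.23, adjusted p 1.47e-07, and -1.41 ± 0.29, adjusted p 8.03e-05) and did not pass in study 2 (0.23 and -0.29). The 2 studies differed for both (1.86 and 1.28 higher in study 2). Ccl3 was at -0.98 in study 1, -0.04 in study 2 and 1.10 between them. Without the 1 specimen of day 104, the study 1 values of Ccl9 and Ccl3 were -0.85 and -0.64, and their differences between the studies, 0.51 (adjusted p 0.303) and 0.57 (adjusted p 0.211), did not pass. With the mean of all its probe sets, the difference of Ccl9 between the studies was 0.46 and did not pass, and that of Ccl6 was 0.65. In study 2 the other Ccl6 probe set averaged 9.37 in captured cells and 12.56 in whole granuloma, against 10.50 and 11.61 for the set used (deposited log2). The other Ccl9 set averaged 4.42 and 7.23, against 10.52 and 11.99. For both genes the gap of the other set is wider, so the study 2 values depend on the probe set. Between the studies Ccl7, a monocyte attractant, went the other way. It lay at 4.27, 5.18 and 5.75 in whole granuloma of study 2 and at 3.51, 4.02 and 4.26 in captured cells (-1.18 ± 0.10, adjusted p 4.63e-13). Its difference in study 1 was 0.11. Its study 2 ranges narrowly did not overlap, as in no other member, and how many of all genes do so was not counted. In study 2 Ccl7 was above the array median in 1 of 15 whole and 0 of 15 captured specimens, so most of these levels are low. Ccl2 did not pass in either study (-0.03 and -0.26). Cxcl16, a membrane-bound ligand of Cxcr6 that also takes up oxidized lipid, was lower in both (-0.95 ± 0.15, adjusted p 6.99e-07, and -1.26 ± 0.21, adjusted p 4.24e-06), while Cxcr6 was not tested.

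T cell attracting members gave small differences. Cxcr3 was lower in captured cells in both studies (-0.44 ± 0.16, adjusted p 0.0137, and -0.83 ± 0.23, adjusted p 0.00196). Of its ligands, Cxcl10 passed in study 2 (-0.49 ± 0.22, adjusted p 0.043) and not in study 1 (-0.69), and Cxcl9 passed in neither (0.58 and -0.19). The Cxcl10 call was lost without any 1 of 9 specimens (all 3 of day 7, specimen 3 of days 17 and 105, specimens 2 and 3 of day 33, specimens 1 and 3 of day 49), at differences between -0.36 and -0.51. Cxcl14, a ligand made by stromal and epithelial cells, was lower in study 1 (-1.70 ± 0.39, adjusted p 0.00031) and not in study 2 (0.28). The difference between the studies was 1.99 ± 0.50 (adjusted p 0.00131). The other Cxcl14 probe set averaged 4.68 in captured cells and 7.75 in whole granuloma of study 2, against 5.71 and 7.29 for the set used (deposited log2). The gap of that other set is wider, so the study 2 value depends on the probe set.

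Ccr9, a receptor that guides lymphocytes and IgA plasma cells to the small intestine, was higher in captured cells of both studies. In study 2 it was at 3.68, 4.07 and 6.51 in whole granuloma and at 4.16, 5.92 and 7.40 in captured cells (1.67 ± 0.17, adjusted p 4.47e-11, 14 of 15 specimens higher). In study 1 it was at 4.28, 4.77 and 5.67 against 4.51, 5.93 and 6.93 (0.75 ± 0.24, adjusted p 0.00812). By day, the study 1 difference was 1.78, 1.23 and 1.14 on days 7, 17 and 33 and -1.17 on day 104, which has 1 specimen, and without day 104 it was 1.39 (adjusted p 4.7e-06). These values come from a probe set that can bind other transcripts. The 2 other Ccr9 probe sets had means of 3.31 and 3.43 in captured cells and 4.81 and 4.69 in whole granuloma of study 2 (deposited log2), below the array medians. Ccl12, a mouse monocyte attractant that binds Ccr2, was at 4.86, 5.86 and 7.31 in whole granuloma of study 2 and at 5.66, 6.93 and 7.82 in captured cells (1.22 ± 0.17, adjusted p 5.92e-08, 13 of 15 specimens higher). In study 1 it differed by 0.16 and did not pass. Cxcl17 was higher in both studies (0.50 ± 0.12, adjusted p 0.000414, and 0.92 ± 0.17, adjusted p 1.74e-05). Ccr6, a receptor of B cells, was higher in study 1 (0.73 ± 0.26, adjusted p 0.0149) and not in study 2 (-0.11). Ccr10, a plasma cell homing receptor, did not pass in either (-0.14 and 0.23).

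Ccl4 and Ccl11 passed with opposite signs in the 2 studies. Ccl4, which like Ccl3 attracts macrophages and T cells, differed by 0.37 ± 0.10 in study 2 (adjusted p 0.00186) and by -0.45 ± 0.15 in study 1 (adjusted p 0.00902). Ccl11, an eosinophil attractant, differed by 0.32 ± 0.13 (adjusted p 0.0313) and by -0.65 ± 0.19 (adjusted p 0.00285). The study 2 call of Ccl11 was lost without specimen 1 of day 7 (0.17), specimen 1 or 2 of day 17, specimen 1 of day 49 or specimen 3 of day 105 (0.28 to 0.30). Between the studies, the differences were 0.92 for Ccl4 and 0.90 for Ccl11. On the deposited scale, before the shift of all genes is taken off, the study 2 values were -1.47 for Ccl4, -1.43 for Ccl11, -0.62 for Ccl12 and -1.38 for Cxcl17, and Ccr9 was at 0.10 and did not pass.

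Of the tested atypical receptors, both passed as lower in study 2, and Ackr3 also in study 1. Ackr3, which removes Cxcl12 and is found on endothelium and stroma, was at 6.48, 8.39 and 8.90 in whole granuloma of study 2 and at 5.28, 7.16 and 7.95 in captured cells (-1.22 ± 0.22, adjusted p 5.21e-06). In study 1 the ranges did not overlap, at 7.55, 7.69 and 8.71 against 4.60, 5.31 and 7.08 (-2.45 ± 0.31, adjusted p 1.51e-08). Ackr1, the Duffy receptor of venules and red cells, was lower in all 15 specimens of study 2 (-1.16 ± 0.13, adjusted p 3.39e-10), at 5.88, 6.73 and 7.48 against 4.86, 5.46 and 6.75, and did not pass in study 1 (-0.35, adjusted p 0.0935).

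In 16 of the 31 members the captured to whole difference itself differed between the studies (10 higher and 6 lower in study 2, against 44.9% of all genes, 22.8% higher and 22.1% lower). The members with a lower value in study 2 were Ccl7 (-1.23), Cxcr2 (-1.07), Ccr6 (-0.88), Ccl22 (-0.79), Ackr1 (-0.71) and Cxcl17 (-0.53). Those with a higher value and not yet given were Ackr3 (1.47), Ccr1 (1.34) and Ccl12 (1.10). The call of Cxcl17 was lost without any 1 of 17 specimens (-0.39 to -0.55), that of Ccl22, which passed the filter only through whole granuloma of study 2, without specimen 1 of day 105 of study 2 (-0.73; -0.52 without specimen 3 of day 17) and that of Ccr6 without specimen 3 of day 7 of study 2 (-0.82). Without the 1 specimen of day 104 of study 1, 12 members passed (7 higher, 5 lower), and Ccl12 (0.75), Cxcl17 (-0.44), Ccl3 and Ccl9 were lost.

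Markers of several other cell types also differed between the tissue types, though not all in 1 direction. Of all genes, 34.5% were higher and 35.3% lower in captured cells of study 2, and 31.5% and 29% in study 1. Between captured cells and whole granuloma, 6 of 9 plasma cell markers were higher and 0 lower in study 2 (4 and 0 in study 1), while 7 of 9 macrophage markers were lower and 1 higher (8 and 0), 6 of 8 endothelial markers were lower in both studies, and all 7 smooth muscle, all 5 mesothelial and all 5 adipocyte markers were lower in both. The summed macrophage level ran from 11.53 to 15.09 in captured cells and from 13.45 to 15.34 in whole granuloma of study 2 (log2), and from 12.98 to 14.86 against 14.82 to 15.33 in study 1. Of 9 neutrophil markers, 3 were higher and 5 lower in study 2 (1 and 4 in study 1), with summed levels of 9.65 to 12.69 against 9.07 to 13.08 in study 2. Of 8 fibroblast markers, 1 was higher and 6 lower (0 and 5). Of 8 T and NK cell markers 1 was higher and 1 lower (2 and 0), and of 5 dendritic cell markers 2 and 2 (2 and 1). Of 4 mast cell and eosinophil markers 1 was higher and 2 lower in each study. Of 6 acinar markers 1 was higher and 0 lower in study 2, and 0 and 5 in study 1. The part of these markers in the chemokine differences was not tested. On the deposited scale, where the median gene lay 1.68 lower in captured cells of study 2 and 0.60 lower in study 1, the calls were 30 lower and 0 higher for study 2, and 24 and 0 for study 1. Only 6 members passed in study 2 with the 3′ minus 5′ difference as a covariate, 1 higher and 5 lower, and the differences of Cxcl2 (0.61, adjusted p 0.648) and Cx3cr1 (0.37, adjusted p 0.593) were then above 0 and did not pass. In study 1 the covariate ended the calls of Ccr9 (0.81, adjusted p 0.0501) and Cxcl14 (-1.10, adjusted p 0.0899). In study 2 the 3′ minus 5′ difference ran from 2.12 to 5.29 in captured and from 1.39 to 1.84 in whole specimens. It thus moves together with tissue type in study 2 and the 2 cannot be told apart. In study 1 the ranges overlapped (3.03 to 5.09 and 2.67 to 3.62), though captured specimens were higher on average.

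The day series of study 2 asked when the members change as the granuloma ages. In whole granuloma 10 of 31 members passed the F test over the 5 days (32.3%, against 24.4% of all 8602 genes tested), and 9 of the 10 had their lowest mean on day 105. In captured cells 7 of 31 passed (22.6%, against 15.2%), all with the lowest mean on day 105, and 6 of them were also called in whole granuloma: Cxcl1, Cxcl5, Cxcl14, Ccl9, Ccl11 and Ccl24. Between day 105 and day 7, 8 of 31 members fell and 0 rose in whole granuloma (25.8%, against 18.9% of all genes, 12.9% lower and 6.05% higher). All 8 were ligands, and 12 CC and 9 CXC ligands were among the 31 tested members. The share of all called genes with their lowest mean on day 105 was not counted.

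**Figure D2:**
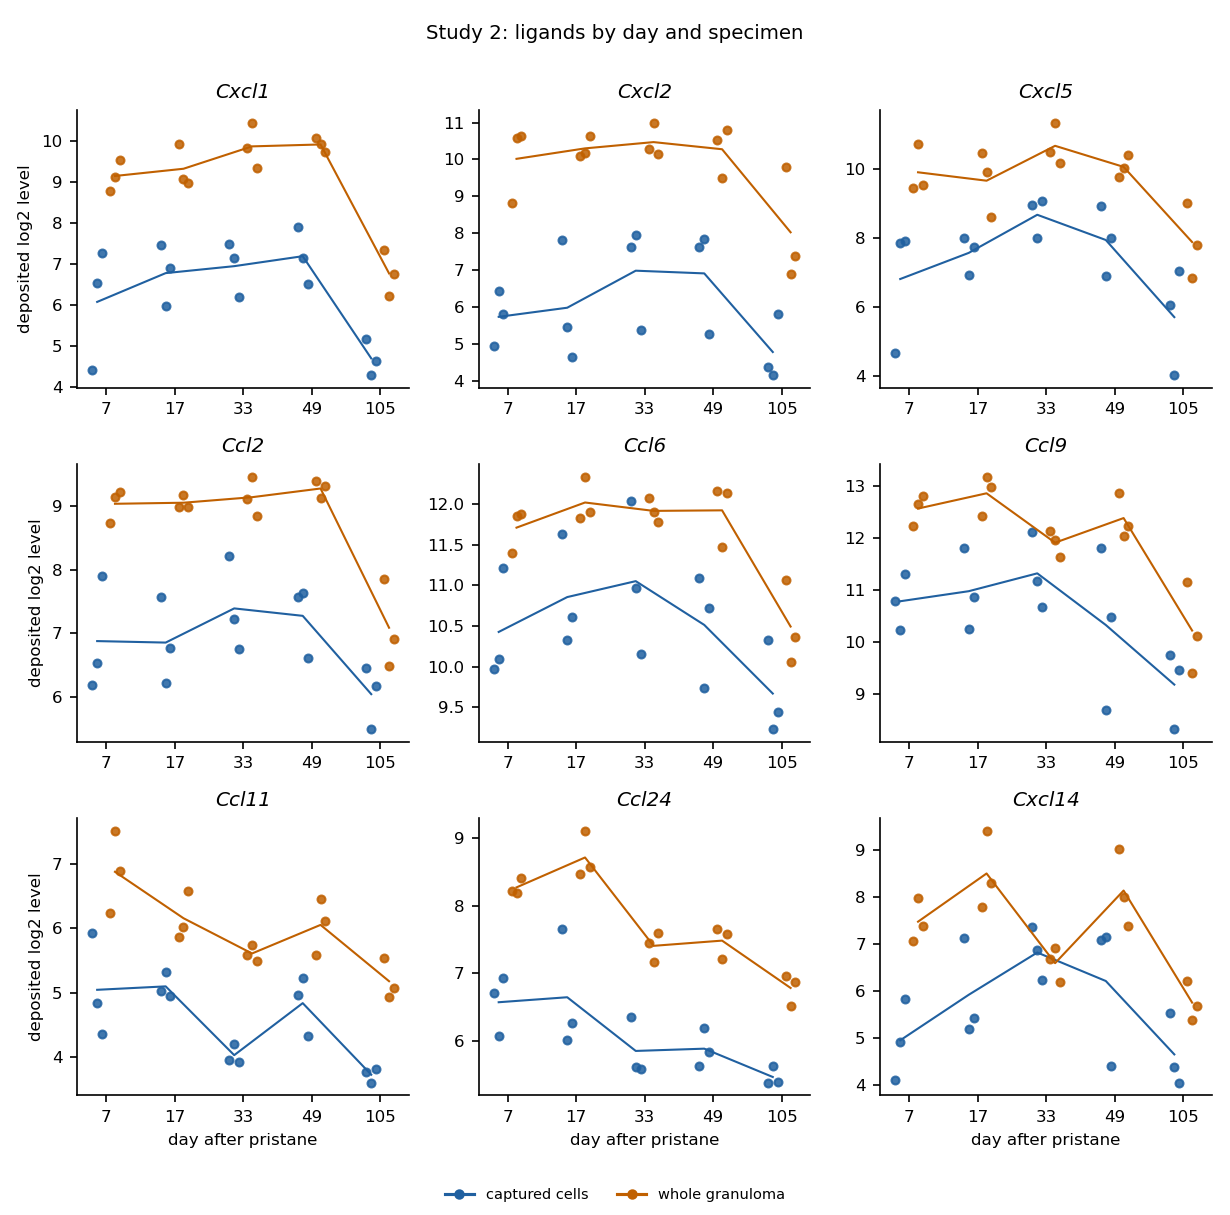
Deposited log2 level by day after pristane (days at equal steps) for 9 ligands in study 2. Points are specimens, 3 per day and tissue type, and lines join the day means of captured cells (blue) and whole granuloma (orange). All 3 whole granuloma specimens of day 105 lie below those of day 7 for each gene drawn except Cxcl2, where 1 lies at 9.80, and captured cells lie below whole granuloma in the day means except for Cxcl14 on day 33.

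Cxcl1 in whole granuloma was at 8.79, 9.13 and 9.54 on day 7, at 9.94, 9.07 and 8.98 on day 17, at 9.84, 10.45 and 9.34 on day 33, at 10.09, 9.93 and 9.75 on day 49 and at 7.34, 6.22 and 6.76 on day 105. The 3 last values lay below all 12 earlier ones. The difference between day 105 and day 7 was -2.38 ± 0.61 (5.19-fold, adjusted p 0.00455), and the day means spanned 3.15 (F test adjusted p 0.000766). In captured cells it was at 4.41, 6.55 and 7.27 on day 7, at 7.90, 7.16 and 6.52 on day 49 and at 5.16, 4.29 and 4.64 on day 105. Its span of 2.50 passed the F test (adjusted p 0.0182), but day 105 against day 7 did not (-1.38), and 1 specimen of day 7 was as low as those of day 105. The F test call in captured cells was lost without specimen 2 or 3 of day 105 (spans 2.29 and 2.47).

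Cxcl5, the other epithelial and stromal neutrophil attractant, was at 9.45, 10.74 and 9.54 on day 7, at 10.51, 11.34 and 10.18 on day 33 and at 9.02, 6.84 and 7.81 on day 105 in whole granuloma. Its day 105 difference was -2.02 ± 0.68 (adjusted p 0.0324), and specimens 2 and 3 were lower than specimen 1. Without specimen 2 of day 7 or specimens 2 or 3 of day 105 the call was lost (-1.61, -1.50 and -1.98), as it was with every array its own observation (adjusted p 0.0893). In captured cells its day means spanned 2.96, highest on day 33 at 8.96, 8.00 and 9.08 and lowest on day 105 at 6.07, 4.04 and 7.04 (adjusted p 0.019). That call was lost without specimen 1 of day 33 (2.82) or specimen 2 of day 105 (2.12), and the F test call in whole granuloma without specimen 2 or 3 of day 105 (2.26 and 2.75). The F test call in whole granuloma was also lost with every array its own observation (adjusted p 0.0787). Cxcl2 had a like pattern in whole granuloma, with 9.80, 6.90 and 7.38 on day 105 against 8.83, 10.59 and 10.63 on day 7, and did not pass (-1.99, adjusted p 0.106). Cxcr2 did not pass the F test in either tissue type, with spans of 0.62 and 0.58.

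Ccl9, an attractant of macrophages and other myeloid cells, was at 12.24, 12.66 and 12.81 on day 7, at 12.42, 13.18 and 12.99 on day 17 and at 11.16, 9.40 and 10.11 on day 105 in whole granuloma. Every day 105 value lay below every earlier one, and the difference from day 7 was -2.35 ± 0.50 (5.08-fold, adjusted p 0.000854). In captured cells it was at 10.80, 10.24 and 11.32 on day 7, 12.12, 11.18 and 10.67 on day 33 and 9.75, 8.33 and 9.47 on day 105 (-1.60 ± 0.50 against day 7, adjusted p 0.0443). This captured call was lost with quantile-normalized values (-1.57), without a filter (-1.60), with the mean of all probe sets (-0.88) and with the 3′ minus 5′ covariate (-1.13), at adjusted p between 0.0537 and 0.198. Its F test call in captured cells was lost without specimen 2 of day 105 (span 1.71) and with the 3′ minus 5′ covariate (span 1.73, adjusted p 0.127). Ccl6, its neighbour in function, was at 11.40, 11.86 and 11.88 on day 7 and at 11.07, 10.05 and 10.36 on day 105 in whole granuloma (-1.22 ± 0.41, adjusted p 0.0302). The call of Ccl6 was lost without specimen 2 or 3 of either day, at -1.0 to -1.15, and with every array its own observation (adjusted p 0.186). The F test call of Ccl6 in whole granuloma was lost without specimen 2 or 3 of day 105 (spans 1.31 and 1.46). It was also lost with every array its own observation (adjusted p 0.223). Their receptor Ccr1 did not pass (-0.96 in whole granuloma, -0.40 in captured cells).

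Ccl2, the main attractant of inflammatory monocytes, was flat and then low in whole granuloma: 8.74, 9.15 and 9.22 on day 7, 9.39, 9.13 and 9.31 on day 49, and 7.86, 6.49 and 6.92 on day 105. It fell by 1.95 ± 0.39 (3.86-fold, adjusted p 0.000455), with no day 105 value within the earlier range. In captured cells the difference was -0.83 and did not pass. Ccl7, which lies in the same family of monocyte attractants, passed the F test in whole granuloma (span 0.97, highest on day 49, lowest on day 105, adjusted p 0.0363), and this call was lost without any 1 of 6 specimens (1 and 2 of day 33, 1 and 3 of day 49, 2 and 3 of day 105, spans 0.66 to 1.03). The call was also lost with quantile-normalized values (span 0.83, adjusted p 0.0834) and with every array its own observation (adjusted p 0.0848). Their receptor Ccr2 did not pass (-0.60 and -0.76).

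The eosinophil attractants Ccl11 and Ccl24, which share the receptor Ccr3, were highest early. Ccl11 in whole granuloma was at 6.23, 7.51 and 6.88 on day 7, at 5.59, 5.74 and 5.49 on day 33 and at 5.53, 4.93 and 5.07 on day 105 (-1.70 ± 0.31, adjusted p 0.00014). In captured cells it was at 5.93, 4.84 and 4.36 on day 7 and at 3.77, 3.60 and 3.81 on day 105 (-1.32 ± 0.31, adjusted p 0.00619). Most of these levels are below the array median. Ccl24 was at 8.21, 8.18 and 8.41 on day 7, at 8.46, 9.10 and 8.56 on day 17 and at 6.96, 6.52 and 6.88 on day 105 in whole granuloma (-1.48 ± 0.30, adjusted p 0.000472), and in captured cells at 6.71, 6.08 and 6.94 against 5.39, 5.64 and 5.40 (-1.10 ± 0.30, adjusted p 0.0188). In both tissue types and for both genes, the day 105 values lay below all day 7 values.

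Cxcl14 did not follow 1 course. In whole granuloma it was at 7.07, 7.97 and 7.38 on day 7, 7.79, 9.41 and 8.30 on day 17, 6.67, 6.91 and 6.19 on day 33, 9.03, 8.00 and 7.38 on day 49 and 6.21, 5.37 and 5.67 on day 105 (span 2.75, F test adjusted p 0.00394). The log2 difference between day 105 and day 7 was -1.72 ± 0.61 (adjusted p 0.0421), a call that was lost without any 1 specimen of day 7 or specimen 2 or 3 of day 105 (-1.48 to -1.92). It was also lost with quantile-normalized values (-1.49, adjusted p 0.107), without a filter (adjusted p 0.0544) and with every array its own observation (adjusted p 0.153). In captured cells, where day 33 was highest at 7.36, 6.86 and 6.23, the span was 2.17 (adjusted p 0.0418), and the call was lost without any 1 of 7 specimens (1 and 2 of days 7 and 33, 2 of day 49, 2 and 3 of day 105, spans 1.87 to 2.17), with quantile-normalized values (2.06), without a filter (2.17) and with the mean of all probe sets (1.32). Among receptors, Ccr9 in captured cells passed the F test (span 1.98, adjusted p 0.00924), at 6.27, 6.46 and 6.47 on day 49 and 5.05, 3.89 and 4.32 on day 105. This call was lost without specimen 2 of day 105 (span 1.71), and the remark above on its probe set applies here too.

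In captured cells 3 of 31 members fell between day 7 and day 105 (Ccl9, Ccl11 and Ccl24) and 0 rose (9.68%, against 6.8% of all genes, 2.36% lower and 4.44% higher). Without specimen 1 of day 7, 0 members passed, and the differences of Ccl9, Ccl11 and Ccl24 were then -1.59, -0.87 and -1.04. That captured specimen is the one with the high acinar markers given above, whose part was not tested. The call of Ccl9 was also lost without specimen 3 of day 7 (-1.34) or specimen 2 or 3 of day 105 (-1.18 and -1.75), and that of Ccl24 without specimen 3 of day 7 (-0.92) or specimen 1 or 3 of day 105 (-1.06 each). No member passed the test of whether its day 105 change differed between tissue types (0 of 31 by limma, 1 at an unadjusted p under 0.05, against 3.39% of all genes, 2.89% higher and 0.5% lower). In whole granuloma, other cell markers also moved between day 7 and day 105, where 12.9% of all genes were lower and 6.05% higher. All 7 smooth muscle markers were lower (median -4.49), as were 3 of 5 adipocyte, 4 of 5 mesothelial, 2 of 9 neutrophil and 1 of 9 macrophage markers, while 5 of 9 plasma cell markers were higher. The summed neutrophil level was 11.84 to 12.90 on day 7 and 10.54 to 11.74 on day 105, and the summed macrophage level 15.37 to 16.02 and 14.56 to 15.51. In captured cells 0 of the 7 smooth muscle, 0 of the 9 macrophage and 0 of the 9 neutrophil markers passed, though the summed neutrophil level was 10.69 to 11.70 on day 7 and 9.54 to 10.23 on day 105. The part of these markers in the fall of the ligands was not tested. The 3′ minus 5′ difference ran from 1.69 to 1.76 on day 7 and from 1.39 to 1.65 on day 105 in whole granuloma, and from 4.47 to 4.99 and 3.22 to 3.79 in captured cells.

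In study 1 no member passed the F test in whole granuloma (0 of 31 by limma, 0 at an unadjusted p under 0.05, against 0.0349% of all genes), and between day 104 and day 7 the differences of Cxcl1, Cxcl5, Ccl2, Ccl6 and Ccl9 were -0.15, 0.16, 0.16, -0.10 and -0.44. Ccl11 (-1.09) and Ccl24 (-0.51) were below 0. None passed (0 of 31, 2 at an unadjusted p under 0.05, against 0% of all genes), with 1 specimen on day 104 and 2 on day 7, so that the spread of day 104 is that of the pooled fit. In captured cells 0 of 31 passed the F test (5 at an unadjusted p under 0.05, against 0.593%). Of the members called lower on day 105 of study 2, 5 of 8 in whole granuloma and 3 of 3 in captured cells were below 0 in study 1. Of all 31 tested members, 16 and 28 were below 0 there, so these counts do not set the called members apart.

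**Figure D3:**
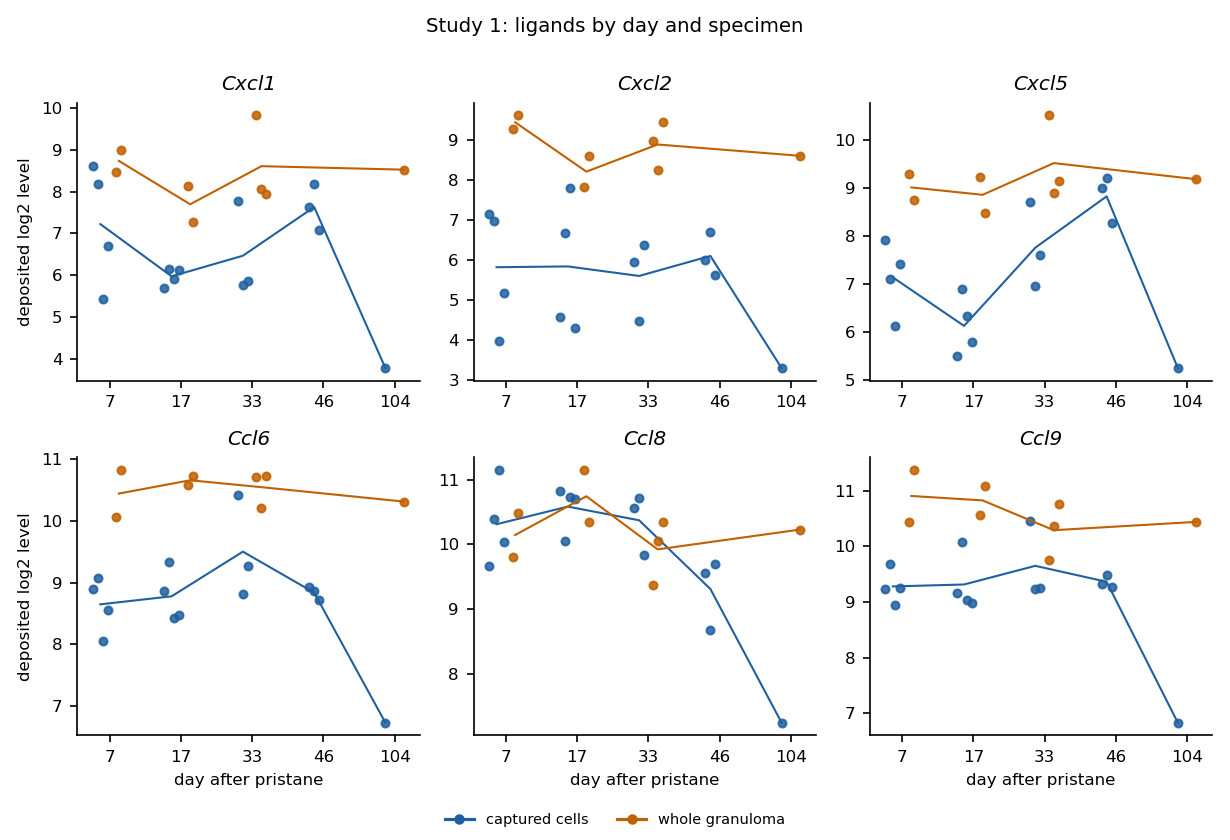
Deposited log2 level by day after pristane (days at equal steps) for 6 ligands in study 1, by specimen, with lines joining day means of captured cells (blue) and whole granuloma (orange). The single captured specimen of day 104 is the lowest captured value for each gene drawn, while the whole granuloma of the same specimen lies among the other whole sections. Whole granuloma was not measured on day 46.

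The captured cells of day 104 of study 1, which are 5 arrays of 1 specimen, were the lowest captured value of that study for the 6 ligands drawn, which were chosen after their values were seen. Cxcl1 was at 3.77 there (arrays 3.34 to 4.29), against 5.42, 6.42 and 8.61 (lowest, median and highest) in the 14 other captured specimens. Against day 7, at 8.61, 8.18, 5.42 and 6.69, it was lower by a log2 difference of -3.45 ± 0.83 (adjusted p 0.026), the 1 of 31 members called there (1.02% of all genes were called, 0.488% lower). This call was lost without either of 2 day 7 specimens (-3.14 and -2.99), and with the calendar year in the titles as a covariate (-2.97, adjusted p 0.073) or the 2 arrays of code 5 of day 7 as 2 specimens (-3.09, adjusted p 0.0952). Ccl8 was at 7.24 (arrays 6.32 to 7.91) against 8.68, 10.23 and 11.15, Ccl9 at 6.83 against 8.95, 9.25 and 10.46, and Ccl6 at 6.73 against 8.06, 8.86 and 10.42. The whole granuloma of this specimen held Cxcl1 at 8.53, Ccl8 at 10.23, Ccl9 at 10.44 and Ccl6 at 10.31, within the range of the other whole sections of study 1. Of the 31 members, 28 were below 0 in the captured cells of day 104 against day 7. The summed macrophage level of the captured specimen was 12.45, against 13.14 to 14.45 in the other 14, and its summed plasma cell level was 13.83, against 13.46 to 14.00. Its summed neutrophil level was 8.30, against 8.97 to 12.36. Their part was not tested.

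The T and NK cell attractants were high in single specimens rather than on a day. In whole granuloma of study 2, Ccl5, a ligand released by T and NK cells, was at 8.18, 8.38 and 12.61 on day 17 and at 11.16, 7.62 and 8.92 on day 105, and the 9 values of the other days lay between 7.76 and 8.48. Cxcl9 was at 6.55, 6.44 and 10.68 on day 17 and at 10.21, 6.77 and 7.69 on day 105. Cxcl10 was at 6.55, 7.35 and 9.21 on day 17 and at 8.99, 6.14 and 6.63 on day 105. The high values belong to specimen 3 of day 17 and specimen 1 of day 105 each time.

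The captured cells of the same 2 specimens differed. Those of specimen 1 of day 105 were high as well, with Ccl5 at 10.08 (others of that day 6.97 and 7.80), Cxcl9 at 9.59 (5.88 and 7.56) and Cxcl10 at 7.51 (4.94 and 4.94). Those of specimen 3 of day 17 were not, at 6.65, 4.74 and 4.35. Receptors were also high in the whole section of specimen 3 of day 17, where Cxcr3 was at 7.42, 7.49 and 9.46, Cxcr6 at 5.70, 5.80 and 9.32 and Ccr7, the lymph node homing receptor, at 5.93, 6.15 and 10.47. Ccl22 (9.98), Ccr6 (9.17) and Ccr9 (8.03) had their highest values in the same section. On day 105, specimen 1 had Cxcr3 at 8.31 and Cxcr6 at 8.01 and Ccr7 at 6.40.

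**Figure D4:**
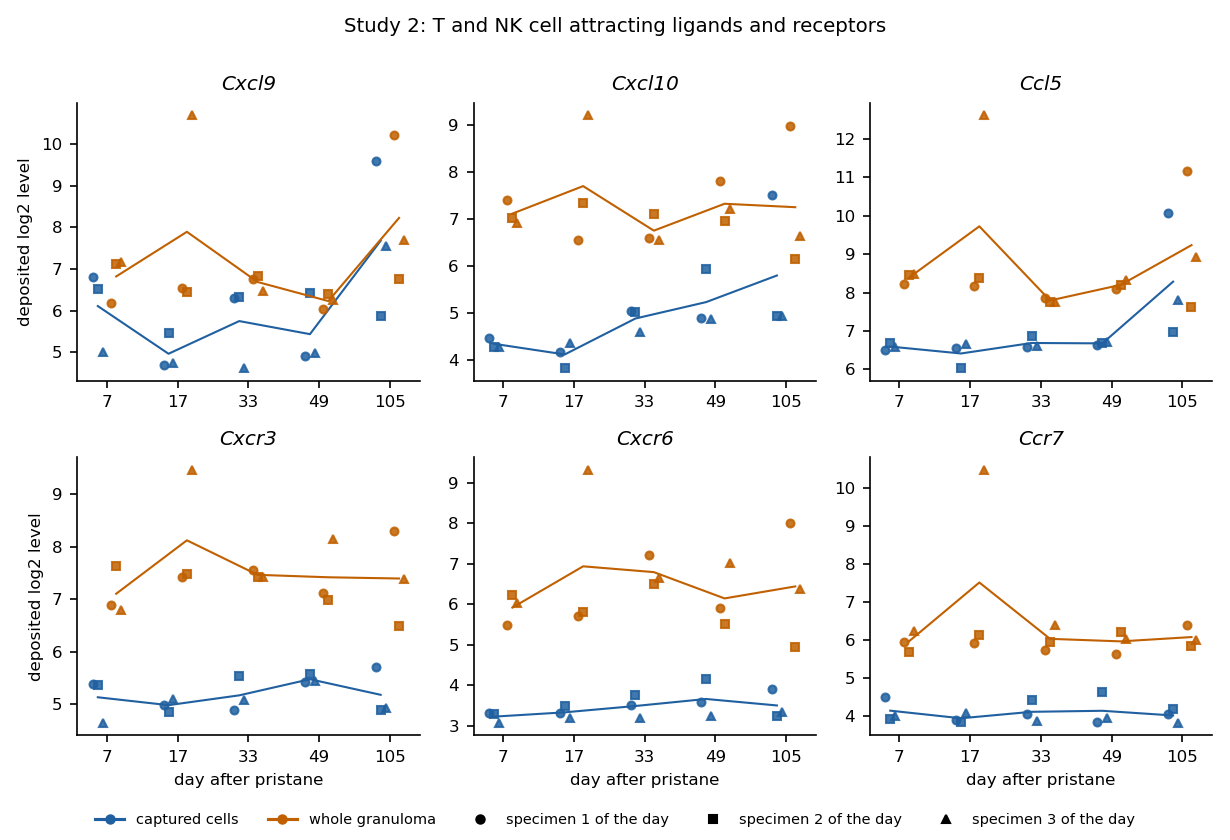
Deposited log2 level by day after pristane (days at equal steps) for Cxcl9, Cxcl10, Ccl5 and 3 receptors in study 2, with the marker shape giving the specimen number within the day. The whole section of specimen 3 of day 17 is the highest point of all 6 panels, and specimen 1 of day 105 stands apart in both tissue types for Cxcl9, Cxcl10 and Ccl5.

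With 3 specimens a day, Cxcl9, Cxcl10, Ccl5 and Cxcr3 did not pass the F test in either tissue type, and Ccr7 and Cxcr6 failed the filter. Ccl22, which was above the array median in 3 whole sections of study 2 and in no other specimen, so that it was tested only through the group where it is high, passed in whole granuloma (span 1.32, highest on day 17, lowest on day 7, adjusted p 0.0472), at 6.89, 6.89 and 9.98 on day 17. Without specimen 3 of day 17 its span was 0.43 and the call was lost, as it was without any 1 of 9 others (all of days 7 and 33, specimen 1 of day 49, specimens 2 and 3 of day 105, spans 1.25 to 1.44). The summed level of 9 T and NK cell markers was 13.74 in the whole section of specimen 3 of day 17, with all 9 above the array median, 11.22 in specimen 1 of day 105 (7 of 9), and 10.14 to 10.72 in the 13 others. In captured cells it was 9.43 in specimen 1 of day 105 and 8.61 to 9.22 in the others. B cell markers summed to 13.16 in the whole section of specimen 3 of day 17, against 10.81 to 12.95 in the others. Their part in these values was not tested.

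Several members were above the array median throughout. Cxcl13, the attractant of B cells into follicles, was above the array median in all 53 specimen averages and passed no test. In study 2 it was at 10.05 to 12.14 in whole granuloma and at 7.00 to 11.70 in captured cells (deposited log2). Ccl8 was also above the array median in all 53 and passed no test, with differences between captured cells and whole granuloma of 0.52 in study 2 and -0.20 in study 1. By day, its study 1 difference was 0.51, 0.19 and 0.93 on days 7, 17 and 33. On day 104, which has 1 specimen, it was -2.45, so the sign of the study 1 value rests on that specimen. Ccl6, Ccl9, Ccr2 and Cxcl16 were above the array median in all 53 as well.

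Genes that work with the members were followed in lists. Of all genes, 34.5% were higher and 35.3% lower in captured cells of study 2, and 31.5% and 29% in study 1. In number called, all of the lists below lie near the shares of all genes (69.8% and 60.5%). Of the chemokine genes outside the symbol rule, 0 of 7 tested were higher and 5 lower in captured cells of study 2 (1 and 3 in study 1), led by Cd74, the invariant chain that also acts as the receptor of Mif (-2.28 ± 0.24, adjusted p 4.86e-11), Dpp4, a protease that trims chemokines (-1.11), and Mif (-0.98). Of 31 tested genes of signalling downstream of the receptors, study 2 had 6 higher and 18 lower (study 1 had 3 and 13), led by Gnb2 (-1.45), Cdc42 (-0.90) and Ptk2b (-0.88). Of 17 tested inducers of chemokine genes, study 2 had 3 higher and 7 lower (study 1 had 1 and 11), led by Relb (-1.32), Tlr2 (-1.07) and Ltbr (-1.02) in study 2 and by Il1b (-2.85), Tlr2 (-2.20) and Tlr4 (-1.96) in study 1.

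Between day 105 and day 7 of study 2, 18.9% of all genes passed in whole granuloma and 6.8% in captured cells. In whole granuloma 6 of 17 inducers were lower and 0 higher, led by Relb, an NF-kB subunit (-1.84 ± 0.37, adjusted p 0.00039), Tlr4, the receptor of bacterial lipopolysaccharide (-1.77 ± 0.40, adjusted p 0.0016), and Ltbr (-1.50 ± 0.26, adjusted p 8.98e-05). In captured cells 0 of 17 passed. Of the chemokine genes outside the rule, Rarres2, which encodes the attractant chemerin (-2.28), and Pf4, a platelet CXC ligand (-1.53), were lower in whole granuloma, 2 of 7 in all. Of the signalling genes 1 was higher (Pik3cg, a kinase of chemokine receptors in leukocytes, 1.82 ± 0.34) and 6 of 31 were lower in whole granuloma, and 2 were higher and 0 lower in captured cells (Rgs19 at 1.19 and Pik3cg at 1.06). The signalling list's 7 of 31 and 2 of 31 are near the shares of all genes. The test of whether the change differed between tissue types called 3.39% of all genes. It called 1 gene in each of the 3 lists, of 7 (outside the rule), 31 (signalling) and 17 (inducers) tested. The 1 of 31 is near the share of all genes, and the others are single genes of short lists.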

How the data were processed

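RNA of captured cells and whole sections was put through 2 rounds of linear amplification before hybridisation, per the labels' protocols. The authors deposited log2 values of 22690 probe sets on 82 arrays, for which the submitters' processing notes name RMA and Partek (versions not given in the sources used here). Of the probe sets, 20393 have 1 gene symbol, 691 several and 1606 none, and only the first were named. For each tissue type, arrays sharing a specimen code were averaged, and the 53 averages of 19 groups were fitted in 1 limma model (limma 3.58.1, R 4.3.3; lmFit and eBayes) with specimen as the random block (duplicateCorrelation 0.111 on quantile-normalized and 0.121 on deposited values; 34 residual degrees of freedom). The block comes from specimen codes in the titles, which both tissue types of a specimen share. P-values were adjusted by Benjamini-Hochberg over all genes tested (8632 or 8602), with a threshold of 0.05. Sums of marker levels are log2 of the summed linear values. Named were all members that passed a test (specimen values for up to 8 per comparison), their receptors or ligands, and up to 3 genes of each list with the largest called difference. The members, lists and tests were chosen with earlier results of these data known. The number of specimens limits the precision. The model was also run on simulated data, whose outcome is not given here. Alternatives were the scale, the filter, the block, the probe set choice, RNA integrity and calendar year as covariates, single arrays and leaving out each specimen.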

Additional observations from a re-analysis of the deposited data

Results flagged for a closer look

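There were 62 checks of 4 specimens each (31 members in captured cells of days 7 and 17 of study 1). In 5 of these checks 1 value lay far from the other 3, where chance gives about 1 in 20 checks. The members of a day were measured on the same 4 specimens, so the checks are not independent of each other. On day 7, Ackr1 was lowest at 4.86 (nearest 5.16) and Ccl12 lowest at 4.55 (nearest 5.87). On day 17, Ccl8 was lowest at 10.06 (nearest 10.71), Cxcl13 lowest at 7.32 (nearest 8.31) and Ccl9 highest at 10.07 (nearest 9.17), on the deposited log2 scale.

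For 16 members, the captured minus whole difference itself was not alike in the 2 studies by limma's interaction contrast. It was higher in study 2 for Cxcl14 (1.99), Ccl6 (1.86), Ackr3 (1.47), Ccr1 (1.34), Ccr2 (1.32), Ccl9 (1.28), Ccl3 (1.10), Ccl12 (1.10), Ccl4 (0.92) and Ccl11 (0.90). It was lower for Ccl7 (-1.23), Cxcr2 (-1.07), Ccr6 (-0.88), Ccl22 (-0.79), Ackr1 (-0.71) and Cxcl17 (-0.53).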

How the results depend on the processing

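The 17 members called between tissue types of study 2 were 30 on the deposited values, 29 without a filter (14 higher, 15 lower, of 49), and 6 with the 3′ minus 5′ covariate. The 16 differences between the studies (10 higher, 6 lower) were 10 with that covariate (8 and 2), and 1 was higher and 11 lower on the deposited values. Without a filter, study 1 had 8 higher and 17 lower. On the deposited values, the study 2 differences of Ccl11, Ccl12, Ccl4 and Cxcl17 reversed to -1.43, -0.62, -1.47 and -1.38, and the differences between studies of Ccl11, Ccl3 and Ccl4 to -0.26, -0.11 and -0.20. With the covariate, Cx3cr1, Cxcl10 and Cxcl2 reversed to 0.37, 0.13 and 0.61. With every array its own observation, the day counts were 12 (captured cells, study 2), 6 (captured cells, study 1), 5 and 5 (day 105 against day 7, whole and captured) and 6 (day 104 against day 7, captured). Calendar year as a covariate gave 3 called members over the days and 3 on day 104 in captured cells of study 1, and the 3′ minus 5′ covariate gave 2 on day 104. For each of these changes, the cause was not tested. Without the replicate block, 16 members were called in study 2, 18 in study 1 and 15 between them, and 2 of 80 member calls were lost. Leaving out each specimen in turn, other than the only one of day 104, gave 14 to 18 in study 2, 18 to 20 in study 1 and 14 to 19 between them. Without day 104, study 1 had 20 and the difference between the studies 12. Over the days it gave 6 to 15 in whole granuloma and 4 to 10 in captured cells of study 2, and 0 to 1 in captured cells of study 1. For the last day it gave 5 to 9, 0 to 3 and 0 to 1 (whole and captured of study 2, captured of study 1). The stricter filter lost none of 68 member calls and median centring 1 of 51, with 7 higher and 11 lower in study 2 and 5 and 16 in study 1. The alternative without 1 array of day 49 was chosen after seeing the data.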
